A study of Mus musculus with 10 samples.

Results

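Promoter-flank peaks are stretches of open chromatin that lie close to a gene's start site without covering it. They were taken as the peaks whose deposited annotation was a promoter class and whose distance to the annotated start site was not 0, which gave 13404 of the 61571 nuclear peaks. Of these, 4564 lay upstream of the start site and 8840 downstream, that is, on the side of the gene. A downstream peak of a short gene can lie beyond the gene's end. The annotation placed 10080 within 1 kb of the start site, 2010 at 1-2 kb and 1314 at 2-3 kb. The other promoter peaks, 9144 in number, covered a start site and are called start-site peaks here.

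The peaks come from an ATAC-seq study of naive CD4 T cells of mice, taken from spleen and lymph node by sorting for CD3+CD4+CD25-CD44low/-CD62L+. ATAC-seq uses the transposase Tn5 to cut and tag DNA where chromatin is open, so the reads per peak measure accessibility. All 10 libraries came from cells of the same genotype, Satb1fl/fl x CD4-CreERT2wt/+: a Satb1 gene flanked by loxP sites, and a tamoxifen-dependent Cre recombinase driven from Cd4. The 5 KO libraries came from tamoxifen-treated cells or mice and the 5 WT libraries from untreated ones, so the deletion and the tamoxifen cannot be told apart. The labels do not say that libraries of a group came from separate animals, and p-values then measure only the spread between these libraries.

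Satb1 encodes a DNA-binding protein that organises chromatin in the T cell lineage. Start sites of active genes sit in a region depleted of nucleosomes, and open sites a short way upstream or within the first part of the gene often hold further binding sites for transcription factors or a second, alternative start. In T cells the bases just upstream of the Il2 start site are the textbook case, since several factors activated by the T cell receptor bind there.

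Flank peaks were narrow, with a median width of 130 bp against 494 bp for start-site peaks. In all, 31.7% of them lay within 200 bp of the start-site peak of their own gene, while 4872 were annotated to a gene with no start-site peak. By RefSeq's promoter table for GRCm38.p6, at least 543 flank peaks held the start of some RefSeq transcript, so some cover a start that the deposited annotation did not use. The table lacks the starts of some genes, so this count is a lower bound.

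For the flank peaks that the naming rule picked, 3 overlapped a RefSeq promoter window, and the 250 bases before each RefSeq start are shown because they place the peak against the start site. They are taken from RefSeq (GRCm38.p6, the assembly behind mm10), run 5′ to 3′ on the strand of the gene up to the base before its start, and have in capitals the bases inside the flank peak. The Il2 peak (chr3:37126181-37126516) begins only at the far end of the window of a minus-strand start at 37125954. The Satb1 peak (chr17:51832493-51832893) covers nearly all of the window of a minus-strand RefSeq start at 51832647, although the deposited annotation counts it as 397 bp downstream of another Satb1 start. The third peak (chr13:23575665-23575796) was annotated 1284 bp downstream of the start of the histone gene H2ac7. It lies over the plus-strand start of a second histone gene, H3c4, at 23575763.
Il2: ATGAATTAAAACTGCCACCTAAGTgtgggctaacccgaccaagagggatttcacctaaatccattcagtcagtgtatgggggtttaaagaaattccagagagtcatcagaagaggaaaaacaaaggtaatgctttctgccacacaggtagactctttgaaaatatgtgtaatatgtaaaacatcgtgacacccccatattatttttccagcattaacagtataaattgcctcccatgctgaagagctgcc
Satb1: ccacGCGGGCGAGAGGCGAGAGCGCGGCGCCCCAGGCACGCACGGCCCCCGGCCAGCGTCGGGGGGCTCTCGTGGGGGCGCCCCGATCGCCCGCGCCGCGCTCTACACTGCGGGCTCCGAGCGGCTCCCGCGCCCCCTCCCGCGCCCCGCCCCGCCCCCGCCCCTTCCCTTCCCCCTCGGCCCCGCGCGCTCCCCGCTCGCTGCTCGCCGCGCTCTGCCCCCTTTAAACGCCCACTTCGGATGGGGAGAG
H3c4: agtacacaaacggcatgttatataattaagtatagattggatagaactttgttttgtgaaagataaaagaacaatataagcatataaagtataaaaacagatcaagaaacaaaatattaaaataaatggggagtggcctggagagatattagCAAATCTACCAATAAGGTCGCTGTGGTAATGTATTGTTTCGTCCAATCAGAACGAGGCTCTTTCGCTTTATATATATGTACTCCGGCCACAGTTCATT
The windows differ in composition. G and C made up 80.8% of the Satb1 bases, 40.4% of the Il2 bases and 32.8% of the H3c4 bases, against a median of 52.4% over the 32851 RefSeq windows. The Satb1 window held 41 CpG dinucleotides, the Il2 window 2 and the H3c4 window 6, which is also the median. On either strand, TATAAA occurred 1 time before Il2 and 3 times before H3c4, 1 of them inside the H2ac7 peak, and was not found before Satb1. It occurs in 12.4% of all windows. GGAAA, the core that NFAT factors bind, occurred 2 times before Il2, both outside the peak, and in neither other window, and 55.6% of all windows hold it. TGTGGT, the core of Runx sites, was found 1 time, inside the H2ac7 peak, against 14% of all windows, and TGANTCA, the AP-1 consensus, was in none of the 3 windows and in 6.75% of all. No motif of these 4 contains another, and a match is a description of the letters only.

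The 10 libraries held between 660107 and 2167685 reads in nuclear peaks, and the median tested flank peak had 8 to 29 reads per library, so counting error alone is large for a single flank peak. A summed count of at least 100 over the libraries was required for testing, which 7168 flank peaks met (34198 peaks in all). Accessibility is given as CPM, the usual depth-scaled count, relative here to the reads in nuclear peaks after TMM scaling. Peaks at the 8 marker genes of naive CD4 T cells summed to between 2171 and 2403 CPM per library, and those at B cell markers to between 49.9 and 67.3 CPM, with no peak annotated to Ms4a1, Pax5 or Ebf1. Lists for myeloid, NK and erythroid or stromal cells summed to between 140 and 422 CPM, and in each of these and in the B cell list the groups overlapped. Peaks at CD8 T cell markers (4 of 6 genes with a peak, none at Gzmk or Nkg7) summed to between 378.9 and 401.26 CPM in KO and between 401.40 and 448.3 CPM in WT, so the groups met without overlapping, and the part of this shift in the results was not tested. Of the 20 pairs of libraries within a group, 10 varied no more than sampling noise (one-sided chi-square p above 0.05). The lowest chi-square per degree of freedom was 0.890, less spread than independent sampling gives on average, and the cause was not tested. Counts with 4 such pairs merged into single samples are given beside the main ones. Libraries of different merged samples, such as Sample_2270_KO and Sample_2271_KO (chi-square p = 0.775), also varied no more than sampling noise. The merged fit therefore does not settle whether its samples are independent.

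Satb1 itself is the gene the tamoxifen treatment targets. Its flank peak measured 45.5, 53.7, 46.2, 41.7 and 44.4 CPM in the KO libraries and 36.9, 32.5, 36.5, 34.6 and 33.4 CPM in the WT libraries. Every KO library was above every WT library, by a small margin. The peak rose 1.31-fold (log2 0.39 ± 0.11, SE; edgeR's quasi-likelihood test, Benjamini-Hochberg adjusted p = 0.0264), while the start-site peak beside it did not pass the test (56.6 ± 4.04 against 54.6 ± 5.998 CPM, SD, n = 5 each; edgeR adjusted p = 0.919). The Satb1 call ended under 6 of 19 other settings, among them DESeq2 (adjusted p = 0.259) and the fit without Sample_2269_KO (edgeR adjusted p = 0.0947), over which the adjusted p of the lost calls ran from 0.0532 to 0.824. The labels do not place the deleted part of the gene, so a promoter peak checks nothing about the deletion.

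Across the flanks more peaks opened than closed. Of the 7168 tested, 154 rose in KO (2.15%) and 42 fell (0.586%), where over all 34198 tested peaks 2.96% rose and 0.974% fell (edgeR adjusted p under 0.05). In either direction 2.73% of flank peaks were called, below the 3.93% of all tested peaks, above the 0.75% of start-site peaks and below the 5.94% of peaks outside promoters. The median log2 fold change was 0.01 over flank peaks and -0.01 over all tested peaks. At least 2-fold changes numbered 49 up and 4 down among flank peaks, beside 367 up and 37 down among all tested peaks. In 160 flank peaks every KO library exceeded every WT library and in 54 the reverse held, together 2.99% of those tested, against 3.95% of all tested peaks. DESeq2 called 70 higher and 1 lower, and the fit with merged libraries 138 higher and 29 lower, all of them among the calls given above.

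**Figure D1:**
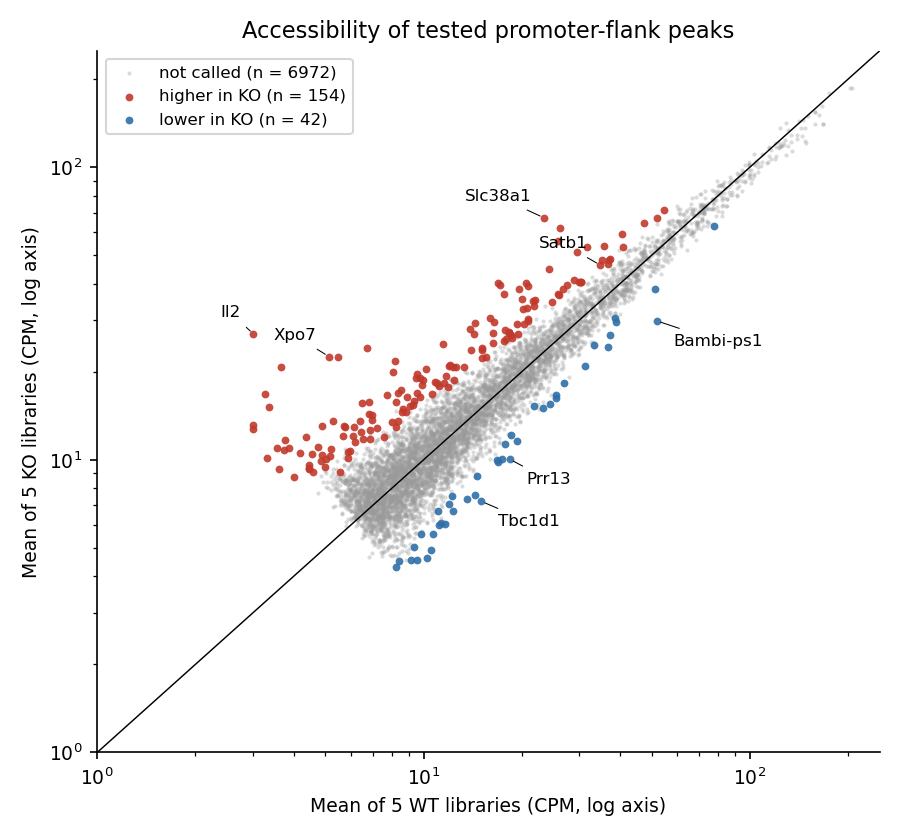
Mean CPM of the 5 WT libraries (horizontal, log axis) against the mean of the 5 KO libraries (vertical, log axis) for the 7168 tested flank peaks; red points were called higher in KO, blue points lower, grey points were not called, and the line marks equality. The 154 red points reach farther from the line than the 42 blue ones, with Il2 the farthest.

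Called flank peaks were of ordinary height. Those that rose had a median of 10.1 CPM in WT and 19.5 CPM in KO, a median fold of 1.81, and folds between 1.24 and 8.91. Those that fell had a median of 16.9 CPM in WT and 9.87 CPM in KO, a median fold of 0.567, and folds between 0.449 and 0.815. Their median widths were 254 bp and 219 bp, against 198 bp for all tested flank peaks. They belonged to 190 genes, of which 6 had 2 called flank peaks, and no gene had calls in both directions. By chromosome the share of tested flank peaks that rose ran from 0.247% on chromosome 9 (1 of 405) to 4.47% on chromosome 1 (18 of 403), a spread given as a description.

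By distance class, calls made up the smallest share within 1 kb of the start site. Within 1 kb 1.86% of tested flank peaks were called in either direction, at 1-2 kb 4.55% and at 2-3 kb 5.39%, the first below and the other two above the 3.93% of all tested peaks. Downstream of the start site 7 of 1098 peaks within the first 250 bp rose and 5 fell, and at 1001-1250 bp 15 of 292 rose and 2 fell. Farther downstream the bins had no steady order: the share called was 6.25% at 1751-2000 bp and 6.48% at 2501-2750 bp, but 2.05% at 1501-1750 bp (1 higher, 2 lower of 146), 1.77% at 2251-2500 bp and 2.97% at 2751-3000 bp. Upstream the first 250 bp held 6 that rose and 1 that fell of 550, and the bin at 2001-2250 bp held 5 and 3 of 97, at 8.25% the highest share of that side. The other upstream bins beyond 1 kb lay between 3.06% and 6.82%. The difference between the distance classes in the share called was not tested.

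Within 1 kb and at 2-3 kb the share called was larger upstream than downstream, a difference that was not tested. Within 1 kb 36 of 1635 upstream peaks rose and 7 fell (2.63% called), whereas 35 of 3464 downstream peaks rose and 17 fell (1.5% called). At 1-2 kb the counts were 18 higher and 3 lower of 475 upstream (4.42%) and 32 higher and 4 lower of 778 downstream (4.63%). At 2-3 kb upstream peaks were called in 6.70% of cases (17 higher, 7 lower of 358) and downstream peaks in 4.37% (16 higher, 4 lower of 458). Median widths and heights of tested peaks were close across these cells, with 190 to 201 bp and 64.6 to 71.7 CPM per kb in WT. When tested flank peaks were divided by summed count into 3 groups of like size, peaks beyond 1 kb were called in 4.38%, 4.28% and 5.97% of cases from the lowest to the highest, and those within 1 kb in 1.49%, 1.91% and 2.21%. Of the latter, upstream peaks were called in 2.58%, 2.92% and 2.45% of cases and downstream peaks in 0.995%, 1.51% and 2.06%, so the 2 sides were closest among the peaks with most reads.

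**Figure D2:**
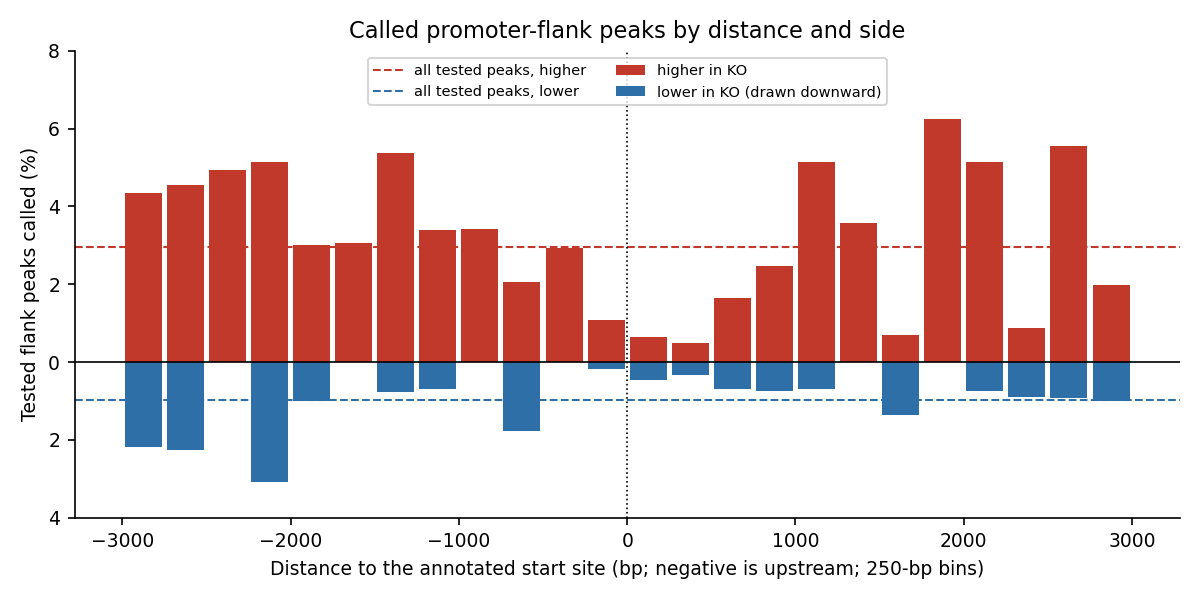
Percent of tested flank peaks called higher (red, upward) or lower (blue, downward) in KO, in 250-bp bins of the distance to the annotated start site, negative values upstream; dashed lines give the percent over all tested peaks, 2.96% and 0.974%. Rises make up 1.09% or less in the bins within 250 bp upstream and 500 bp downstream and also in those at 1501-1750 and 2251-2500 bp downstream, and bins beyond 1 kb hold at most 292 tested peaks downstream and 147 upstream, so single bars move with a few calls.

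Over both sides together, the share called also increased with the gap to the gene's own start-site peak, a difference that was not tested. Flank peaks within 200 bp of it were called in 1.47% of cases (19 higher, 11 lower of 2034), at over 200 to 500 bp in 2.32%, at over 500 to 1000 bp in 3.74% and beyond 1000 bp in 5.61% (39 higher, 12 lower of 909). Upstream peaks alone had no steady order, with 1.97%, 4.25%, 3.12% and 6.98% over the same gaps. For downstream peaks the shares were 1.26%, 1.64%, 4.03% and 4.72%. Where the gene had no start-site peak the share over both sides was 2.60% (55 higher, 11 lower of 2540). Flank peaks that held a start of the RefSeq table were called in 1.75% of 456 tested cases and the others in 2.80%.

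As classes, neither the flanks nor their sides or distance bands took a share of reads that differed between the groups beyond the spread of libraries. Flank peaks held 14.8 ± 0.330% of the reads in tested peaks in KO and 14.6 ± 0.167% in WT (SD, n = 5 each; two-sided exact permutation p = 0.302). The log2 ratio of upstream to downstream reads was -0.77 ± 0.03 in KO and -0.79 ± 0.02 in WT (exact permutation p = 0.278). Of flank reads, 70.9 ± 0.395% in KO and 71.3 ± 0.606% in WT lay within 1 kb (p = 0.278 by the same exact test), 17.96 ± 0.224% and 17.8 ± 0.374% at 1-2 kb (exact p = 0.325) and 11.1 ± 0.178% and 10.9 ± 0.251% at 2-3 kb (exact p = 0.246). All 5 comparisons had a Benjamini-Hochberg adjusted p of 0.325 from these exact tests, and the smallest p that 252 assignments of libraries allow is 0.00794. KO and WT libraries overlapped in each measure. Without Sample_2274_WT, whose 1 kb share of 70.3% was the lowest of all libraries, the difference within 1 kb was -0.609 percentage points (exact permutation p = 0.0397) and that at 2-3 kb 0.262 (exact permutation p = 0.0476), both unadjusted.

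**Figure D3:**
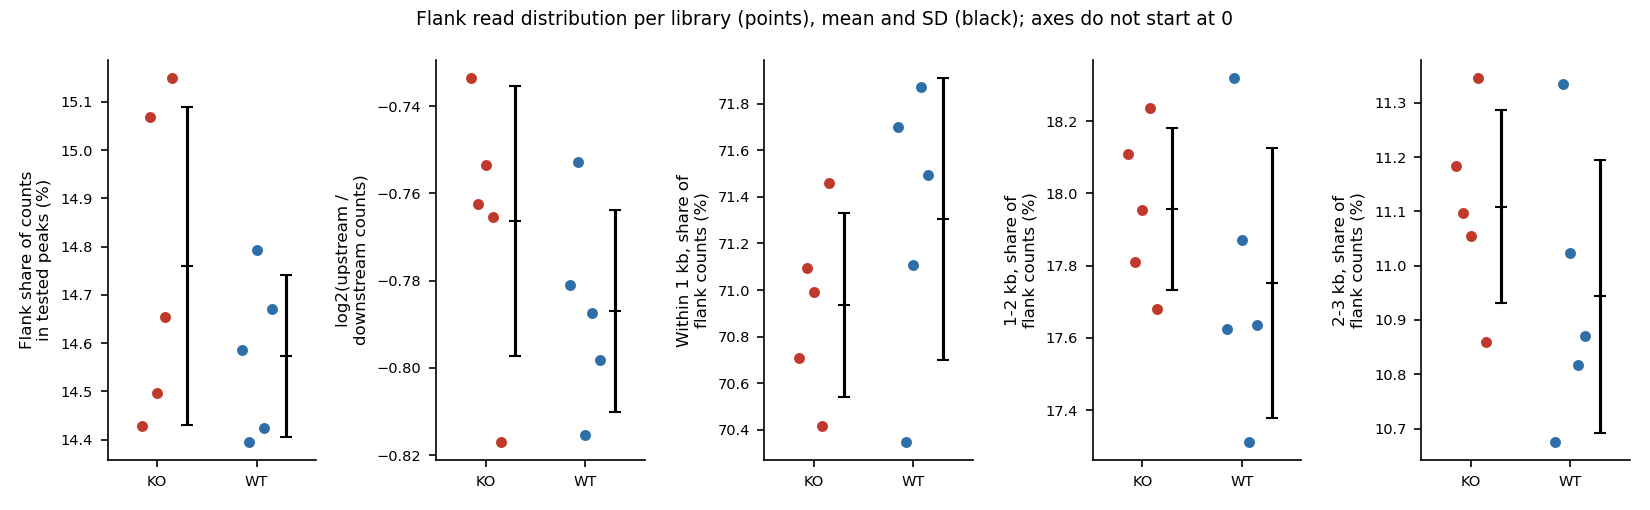
Each point is 1 library, red KO and blue WT, with the group mean and SD in black; panels give the flank share of reads in tested peaks (%), the log2 ratio of upstream to downstream flank reads, and the shares of flank reads within 1 kb, at 1-2 kb and at 2-3 kb (%). The axes do not start at 0 and span narrow ranges, and the 2 groups overlap in every panel.

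Among single peaks, the largest rise of all tested flank peaks lay upstream of Il2, the gene of the main T cell growth cytokine. The peak at -227 bp, whose end nearest the gene is printed in capitals above, had 25.0, 18.2, 35.4, 27.7 and 28.4 CPM in KO and 2.99, 2.54, 1.92, 3.27 and 4.33 CPM in WT. The lowest KO library was thus several times the highest WT library. The rise was 8.91-fold (log2 3.15 ± 0.24, SE; edgeR adjusted p = 2.79e-18). The start-site peak of Il2 (chr3:37125695-37125981) also rose, from 5.38 ± 1.04 to 21.4 ± 2.90 CPM (3.85-fold, edgeR adjusted p = 8.29e-11). The flank peak rose more than the start-site peak: the log2 ratio of the 2 counts went from -0.74 in WT to 0.30 in KO (difference 1.04 ± 0.26, SE; limma adjusted p = 0.0319), although single libraries of the groups overlapped in that ratio.

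Upstream peaks of 5 further genes with a symbol were among the 8 largest rises that the naming rule took. A peak at -153 bp from a gene ID with no symbol, which that rule left out, rose 4.83-fold, from 3.36 ± 1.33 to 15.1 ± 3.13 CPM, behind only Il2 and Lrp10. Lrp10, which encodes a receptor of the LDL receptor family, had a peak at -487 bp with 19.8, 22.1, 20.001, 22.3 and 19.7 CPM in KO and 4.99, 4.07, 2.88, 3.27 and 3.09 CPM in WT. Its 5 KO values were tight and far above WT, a 5.78-fold rise (edgeR adjusted p = 5.70e-14). Ogt, whose product attaches N-acetylglucosamine to nuclear and cytoplasmic proteins, rose 4.65-fold at -899 bp (16.7 ± 4.02 against 3.28 ± 1.34 CPM, SD, n = 5 each). Creb3l1, a membrane-bound transcription factor, rose 3.97-fold at -213 bp from 2.99 ± 0.987 to 12.7 ± 2.54 CPM, with no start-site peak of its own. Lats2, a kinase of the Hippo pathway, rose 3.85-fold at -413 bp from 5.46 ± 2.44 to 22.4 ± 1.70 CPM. Dcaf11, a substrate receptor of a ubiquitin ligase, rose 3.74-fold at -2764 bp from 3.00 ± 1.08 to 13.1 ± 4.82 CPM, and Sample_2270_KO stood above its group there. In each of these 5 peaks the lowest KO library was above the highest WT library.

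Downstream of start sites, the Xpo7 peak at +1204 bp was the largest rise. Xpo7 encodes a nuclear transport receptor, and the peak had 27.9, 17.3, 13.8, 27.2 and 26.5 CPM in KO against 3.99, 5.59, 3.84, 8.50 and 3.71 CPM in WT (4.73-fold, edgeR adjusted p = 5.53e-13). Sample_2269_KO and Sample_2270_KO were the lowest of their group and above every WT library, which the naming rule required. The H2ac7 peak, which by RefSeq covers the H3c4 start, rose 3.47-fold from 3.56 ± 1.98 to 11.02 ± 1.36 CPM (edgeR adjusted p = 6.02e-06).

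The peak with the smallest adjusted p was also taken in each of the 6 combinations of side and distance, which named Il2 again and 5 others. Slc38a1, a sodium-coupled transporter of neutral amino acids, had a peak at +1877 bp (chr15:96640489-96641036) with 68.3, 66.2, 67.7, 73.8 and 59.9 CPM in KO and 18.9, 21.3, 25.0, 28.8 and 22.9 CPM in WT. The groups were far apart, and the rise was 2.82-fold (edgeR adjusted p = 1.97e-18). Sgsh, a lysosomal enzyme that degrades heparan sulfate, rose 3.20-fold at +427 bp, from 6.70 ± 3.04 to 24.1 ± 2.93 CPM (edgeR adjusted p = 9.62e-10). Mppe1, a phosphoesterase that remodels GPI anchors, rose 2.41-fold at -2945 bp, from 26.3 ± 4.65 to 61.8 ± 8.27 CPM (edgeR adjusted p = 1.10e-14). A gene with only the systematic name A630076J17Rik rose 2.21-fold at +2716 bp, from 25.8 ± 5.65 to 55.8 ± 5.33 CPM. Upstream at 1-2 kb the leading peak fell: it lies at -1342 bp from a pseudogene, Bambi-ps1 by RefSeq's gene ID, and had 30.8, 33.6, 26.2, 34.0 and 24.7 CPM in KO against 35.9, 63.0, 59.5, 55.6 and 45.2 CPM in WT (0.555-fold, edgeR adjusted p = 1.07e-07). Sample_2273_WT was the lowest of its group and only just above the highest KO library.

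Among called peaks whose libraries did not overlap, those with a symbol that fell the most did so by less than 2-fold. Their WT means ran from 8.22 to 18.3 CPM, where the median tested flank peak had 12.0 CPM in WT. The 4 that fell by 2-fold or more, named after their values were seen, were Nsf, Nemp2 and B4galnt4, with overlapping libraries, and one annotated to Mir7227 by gene ID. Tbc1d1, which regulates Rab GTPases in glucose transporter trafficking, had a peak at -1250 bp with 9.54, 2.88, 6.15, 10.2 and 7.32 CPM in KO and 15.96, 16.8, 13.9, 11.1 and 17.3 CPM in WT. The groups came within about 1 CPM of each other and did not overlap, and the fold was 0.523 (edgeR adjusted p = 0.00381). Nudc, a partner of the dynein motor, had a fold of 0.510 at +527 bp (4.30 ± 1.01 against 8.22 ± 1.44 CPM), the smallest of the named ones. Snap29 (a SNARE protein of membrane fusion), Bora (an activator of mitotic kinases), Dap (a regulator of autophagy), Mlec (a lectin of the endoplasmic reticulum) and Hs6st1 (a heparan sulfate sulfotransferase) had folds between 0.553 and 0.583 with KO means of 5.97 to 9.95 CPM. None of these 7 calls, nor that of Prr13, was kept by DESeq2, whose adjusted p for them ran from 0.0533 to 0.298, and the calls of Nudc, Snap29, Bora and Mlec also ended without single libraries.

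Prr13 was the gene whose flank and start-site peaks were called in opposite directions with the flank lower. The peak at -657 bp had 11.7, 11.5, 9.23, 6.79 and 10.98 CPM in KO and 23.9, 14.2, 21.1, 16.3 and 16.1 CPM in WT, a fold of 0.552 (edgeR adjusted p = 0.00275). The start-site peak, 386 bp away, had 41.9, 36.4, 33.8, 43.7 and 44.8 CPM in KO and 19.9, 25.4, 16.8, 23.5 and 24.1 CPM in WT, a fold of 1.899. At both peaks the groups were separate, which the naming rule required of the flank peak. Yes1, a Src-family kinase, showed the reverse, with a flank peak at -600 bp that rose 1.79-fold (with overlapping libraries) beside a start-site peak that was called lower.

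**Figure D4:**
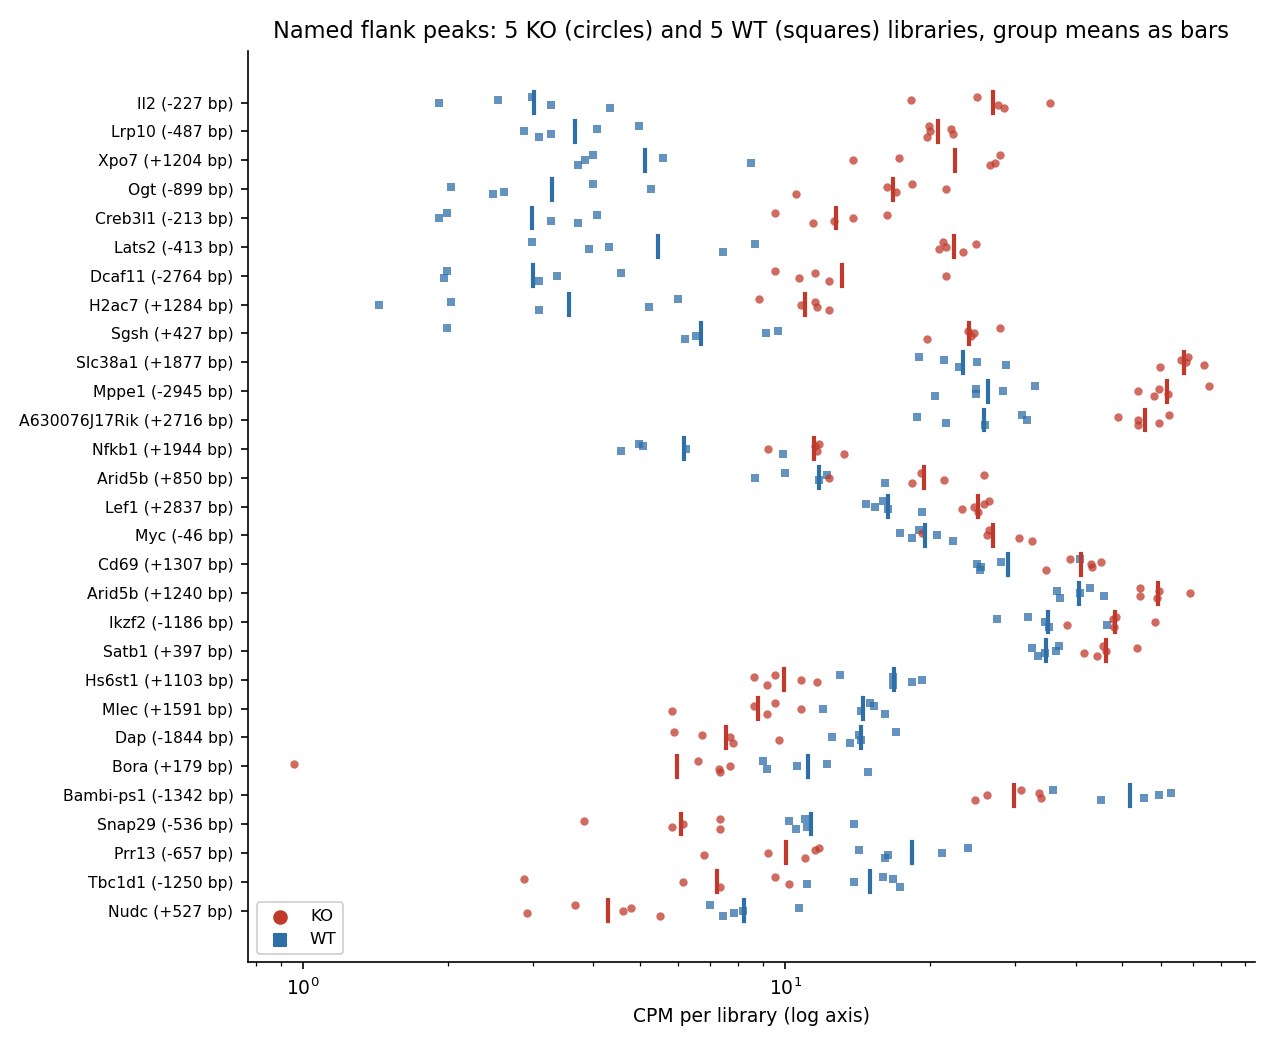
CPM in each library (log axis) for the named flank peaks, ordered by fold change, with the distance to the start site in brackets; red circles are the 5 KO libraries, blue squares the 5 WT libraries, and vertical bars the group means. The upper rows are clear of overlap, Satb1 and Ikzf2 show the smallest rises, and a single KO circle of Bora at 0.959 CPM lies far left of its group.

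Most called flank peaks had a start-site peak that was not itself called. Of the 154 that rose, 95 had a tested start-site peak of the same gene: 5 of those rose too (Fam111a, Il2, Neurl3, Rnf135 and S1pr1), 1 fell (Yes1) and 89 were not called. The median fold over these 95 was 1.81 at the flank and 0.992 at the start site. Of the 42 that fell, 31 had one, of which 1 rose (Prr13) and 30 were not called, with median folds of 0.583 and 0.973. At Lrp10 the start-site peak, 267 bp away, had means of 32.4 ± 3.58 (KO) and 32.8 ± 3.34 CPM (WT), and at Slc38a1 these were 19.4 ± 3.14 and 19.5 ± 2.48 CPM. A start-site peak that was not called may still have changed by less than these counts can show. That flank and start site changed by different amounts was shown only where the ratio of the 2 peaks was called.

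The flank peak was therefore also tested as a ratio to the start-site peak of its gene within each library. Start-site counts were summed where a gene had several such peaks. Library size cancels in this ratio only approximately, because 1 was added to each count. Of 4501 flank peaks with such a partner, 41 rose relative to it (0.911%) and 10 fell (0.222%), both read from the same test (limma adjusted p under 0.05). Of these 51, 41 were also called by themselves and 10 were not. Seen from the called flank peaks, the ratio was higher for 36 of the 95 that rose and lower for 5 of the 31 that fell, so for most of them a movement apart from the start site was not shown. By side and distance, 13 of 455 downstream peaks at 1-2 kb rose and 0 fell, 11 of 961 upstream peaks within 1 kb rose and 1 fell, and 7 of 2425 downstream peaks within 1 kb rose and 4 fell. Upstream at 1-2 kb 3 of 266 rose and 4 fell, the one combination with more falls than rises, and at 2-3 kb the counts were 5 and 1 of 170 upstream and 2 and 0 of 224 downstream. An edgeR interaction model on the counts called 43 higher and 10 lower in all.

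The 6 smallest adjusted p of the ratio test were all rises. For Lrp10 the log2 ratio went from -2.98 ± 0.38 in WT to -0.62 ± 0.24 in KO (SD, n = 5 each), a difference of 2.36 ± 0.25 (SE; limma adjusted p = 5.99e-07). For Slc38a1 it went from 0.25 ± 0.24 to 1.76 ± 0.25 (limma adjusted p = 6.78e-07), a difference of 1.51 ± 0.17 (SE). For Sgsh it went from -0.36 ± 0.81 to 2.13 ± 0.47, the largest difference of the 6 at 2.49. Its start-site peak, which was not called by itself, had 5.09 ± 1.87 CPM in KO libraries and 8.10 ± 1.178 CPM in WT libraries. Xpo7 (2.08), Ogt (2.104) and Lats2 (1.70) followed with their differences. In each of the 6 the ratio of every KO library was above that of every WT library. Prr13 had the lowest difference of all, -1.67 ± 0.25 (SE; limma adjusted p = 6.64e-05).

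**Figure D5:**
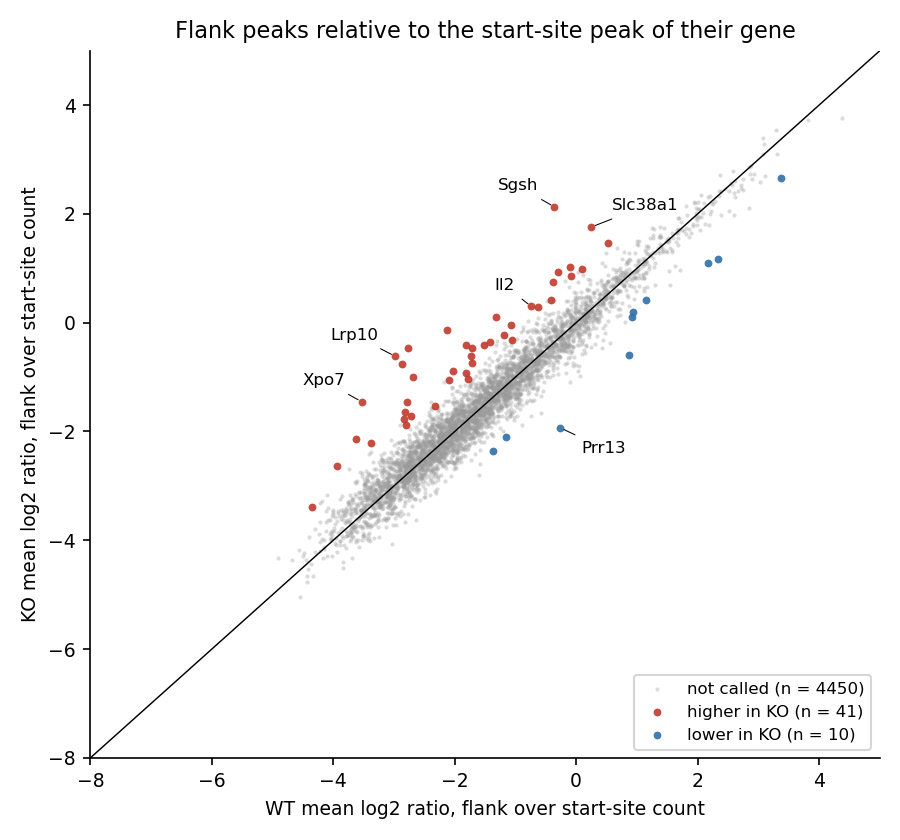
Mean log2 ratio of flank count to start-site count of the same gene, with 1 added to each count, in WT (horizontal) and KO (vertical) for 4501 flank peaks; red points rose relative to the start site, blue points fell, grey points were not called, and the line marks equality. Lrp10, Xpo7, Sgsh and Slc38a1 lie well above the line, Prr13 well below it.

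Few genes had more than 1 flank peak called. Of the 148 genes with a flank peak that rose, 85 had 2 or more tested, and in 6 of these a second one rose. Of the 42 genes with a flank peak that fell, 19 had 2 or more tested, and none had a second call. The tested flank peaks of these genes that were not called had a median fold of 1.10 beside a rise (133 peaks in 81 genes, 92 of them above 1) and of 1.02 beside a fall (31 peaks), values given as a description since the called peaks are not among them. Across the 670 genes with tested peaks on both sides, upstream and downstream log2 fold changes had a Pearson r of 0.03, and between flank and start site r was 0.15 upstream (1199 genes) and 0.06 downstream (2472 genes). These are descriptions across genes that share the same 10 libraries, at counts where noise is large.

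The 6 genes with 2 rises include 4 with a symbol. At Arid5b, a DNA-binding cofactor of histone demethylation, the peak at +1240 bp had 54.3, 59.4, 69.2, 54.3 and 59.0 CPM in KO and 42.9, 36.6, 40.8, 45.8 and 37.1 CPM in WT (1.44-fold), and the one at +850 bp rose 1.69-fold with overlapping libraries. At Leprotl1, a regulator of receptor levels at the cell surface, the peak at -2796 bp had 22.0, 26.8, 30.8, 23.8 and 21.0 CPM in KO and 13.96, 10.7, 9.12, 10.5 and 13.0 CPM in WT (2.13-fold), and its neighbour at -2455 bp rose 1.71-fold. All 5 KO libraries exceeded all WT libraries at both Leprotl1 peaks. Pmm2, an enzyme of mannose metabolism, rose 2.097-fold at +1830 bp and 1.99-fold at +2143 bp. Xdh, xanthine dehydrogenase, rose on both sides of its start, 1.46-fold at -2081 bp and 1.81-fold at +391 bp. The other two had no symbol in the deposited annotation and are AI504432 (1.89-fold at -963 bp, 2.46-fold at -577 bp) and Mir3960 (2.16-fold at -2312 bp, 3.20-fold at -1568 bp) by RefSeq's gene IDs.

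Rises at T cell genes are given from lists. Over 6 lists of IL-2 signalling, T helper, naive and quiescence, T cell receptor, activation and chromatin genes, 179 flank peaks of 95 genes were tested, 12 rose and 0 fell by edgeR. An unadjusted edgeR p under 0.05 was reached by 23 upward and 2 downward. DESeq2 called 3 higher and 0 lower, limma-voom 12 and 0. The lists were chosen with results of these data known, so the count is a description, to be read beside the 2.15% of flank peaks and 2.96% of all tested peaks that rose. Since 0.586% of flank peaks fell, a list of this size would hold about 1 fall at that share, and the 0 falls are no result about the list.

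By list, IL-2 signalling had 2 of 18 tested peaks higher, at Il2 and at the growth regulator Myc (-46 bp, 1.45-fold). The naive and quiescence list had 4 of 29, the most, among them Lef1, S1pr1 and Satb1. Lef1, a factor of naive T cell identity, rose 1.53-fold at +2837 bp, with 26.4, 25.9, 24.6, 23.3 and 25.2 CPM in KO against 15.96, 14.7, 15.4, 16.3 and 19.2 CPM in WT (edgeR adjusted p = 0.00673). The KO libraries lay close together and above every WT library. S1pr1, the receptor for exit from lymph nodes, rose 1.64-fold at +1967 bp with overlapping libraries.

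The activation and memory list had 2 of 37 higher, at the early activation marker Cd69 (+1307 bp, 1.44-fold) and at Nfkb1 (+1944 bp, 1.904-fold). For Cd69 Sample_2273_WT stood at 40.9 CPM, inside the KO range. T helper cytokines and regulators had 1 of 25, Ikzf2, which encodes Helios (-1186 bp, 1.33-fold), and chromatin organisers had 3 of 38, Satb1 and both Arid5b peaks. The calls of Cd69, Lef1, Nfkb1, Myc, Ikzf2 and the Arid5b peak at +850 bp were not kept by DESeq2, and those of Nfkb1, Myc and Ikzf2 ended without 1, 3 and 6 of the single libraries in turn (edgeR adjusted p up to 0.0625, 0.145 and 0.169).

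Lists of other kinds were small. By edgeR 0 of 24 housekeeping, 0 of 12 interferon response and 0 of 16 oestrogen receptor response peaks were called, with 1, 1 and 2 at an unadjusted p under 0.05 and 0 by DESeq2 or limma-voom. At the 2.73% of flank peaks called in either direction each of these lists would hold fewer than 1 call, so the counts of 0 do not set them apart from the T cell lists. Tamoxifen acts on oestrogen receptors, which is why the last list was included. Ifit2, an interferon-induced gene named after its values were seen, was not counted in the interferon list. Its flank peak at +364 bp rose 1.83-fold with overlapping libraries (edgeR adjusted p = 0.0359). Of B cell, myeloid, NK, CD8 and erythroid or stromal marker genes, only 9 flank peaks reached the count minimum and 0 were called by edgeR, DESeq2 or limma-voom or had an unadjusted edgeR p under 0.05.

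Some called flank peaks sit near another start. Of the 191 called on chromosomes of the RefSeq table, at least 15 had the RefSeq start of another gene within 1000 bp, and 1 of those, the H2ac7 peak, held it. These counts are lower bounds, because the table lacks the starts of some genes. The nearest start it gives lies 210509 bp from the Myc peak and 401820 bp from the Xpo7 peak. The Bora peak at +179 bp and the Snap29 peak at -536 bp lie 420 bp and 401 bp from starts of Mzt1 and Pi4ka. Which of 2 such genes a flank peak serves cannot be told apart from these data. Among genes named after their values were seen, the host transcript of miR-155, Mir155hg by gene ID, rose 1.80-fold at +178 bp with overlapping libraries, and a peak at -2659 bp from Mir21a rose 1.73-fold, from 29.5 ± 3.93 to 51.2 ± 4.67 CPM (edgeR adjusted p = 8.62e-08).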

How the data were processed

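The authors deposited whole-number counts of reads for 1 common peak set in 10 libraries, and an annotation with each peak's width and signed distance to a start site in bp, per the file headers. The submitters' processing notes name Bowtie2 2.3.5, MACS2 2.1.2, ChIPseeker 1.18.0, DESeq2 1.22.2 and mm10 without roles, and read shifting, duplicate removal and pooling before peak calling are not given in the sources used here. Libraries were single reads of 75 bp from 60000 cells, per the labels, and groups came from the sample titles.

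The 10 mitochondrial peaks were left out. Peaks with a summed count of at least 100 were fitted with edgeR 4.0.16 (TMM, quasi-likelihood test, Benjamini-Hochberg over all 34198, threshold 0.05). Fold changes are its KO over WT estimates, CPM means are ± SD. The flank to start-site ratio used limma 3.58.1 on log2 of counts plus 1 (lmFit, eBayes with trend), and read shares used exact permutation tests. Both models were checked on simulated counts. DESeq2 1.42.0, limma-voom, other scalings, filters, depth thinning, merged libraries and leaving out each library were the alternatives. Members, gene lists and naming rules were chosen with earlier results of these data known. Named peaks were those of Il2 and Satb1, the 8 largest changes per direction without overlap of libraries (1 per symbol, without Gm, LOC or Rik names), the smallest adjusted p in each side and distance class, the first 10 called in the gene lists (some genes of these lists are not reported here) and the first 6 of the ratio test. RefSeq promoter sequences (GRCm38.p6) matched 78.3% of flank peaks by gene ID (chromosome 18 is not in that table), and RefSeq gene IDs named 195 of 196 called peaks.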

Additional observations from a re-analysis of the deposited data

Results flagged for a closer look

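Stray libraries were sought in 70 groups of 5 libraries, taken from the named peaks and from the class measures of reads. In 4 groups, all at named peaks, a library's gap to its nearest neighbour divided by the group's range exceeded Dixon's limit for 5 values. Chance flags about 1 in 20 groups. At the Dcaf11 peak (-2764 bp) Sample_2270_KO, the library with the lowest total, had 21.5 CPM where the other KO libraries had 9.55 to 12.4 CPM. At the Bora peak (+179 bp) Sample_2269_KO had 0.959 CPM where the others had 6.61 to 7.69 CPM, and without it the fall no longer passed the test (edgeR adjusted p = 0.166). The Bora call also ended without 6 other single libraries, 7 of the 10 in all, and under limma-voom and with merged libraries. At the Snap29 peak (-536 bp) Sample_2275_WT had 13.9 CPM beside 10.2 to 11.1 CPM, and without it that call ended as well (edgeR adjusted p = 0.127), as it did without Sample_2269_KO and without Sample_2271_KO. At the Cd69 peak (+1307 bp) Sample_2273_WT had 40.9 CPM beside 25.0 to 28.0 CPM in the other WT libraries.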

How the results depend on the processing

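The counts of 154 flank peaks higher and 42 lower became 70 and 1 with DESeq2, 58 and 11 with a summed count of at least 300 (1998 flank peaks tested), and 50 and 11 with all libraries thinned to the smallest total; fewer peaks or fewer reads entered those last settings by construction. Leaving out each library gave 123 to 151 higher and 26 to 42 lower, with the lower count at 27, 26 and 26 without Sample_2268_KO, Sample_2271_KO and Sample_2275_WT; the cause was not tested. The 51 ratio calls became 10 with a summed count of 300 (914 tested) and ranged from 24 to 65 over the other settings (24 to 49 without each library), with 29, 26 and 24 without Sample_2269_KO, Sample_2272_KO and Sample_2276_WT. The differences in read share kept their side of the threshold except without Sample_2274_WT (-0.609 percentage points within 1 kb, 0.262 at 2-3 kb). Leaving out each library gave differences of 0.0890 to 0.269 for the flank share, -0.609 to -0.228 within 1 kb, 0.0953 to 0.347 at 1-2 kb and 0.0973 to 0.262 at 2-3 kb in percentage points, and of 0.01 to 0.03 for the log2 ratio of the sides. No result changed direction in any of these settings. Other scalings, limma-voom and filterByExpr left 149 to 155 higher and 31 to 42 lower, and no count filter 165 and 55. No paired analysis was possible because the replicate numbers of KO and WT libraries are not shared. With a median of 8 to 29 reads per tested flank peak and library, depth limits what a single peak can show.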
